A study of Mus musculus with 8 samples.

Results

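The 38 genes described here carry glucose into cells, break it down to pyruvate and lactate, and store it as or release it from glycogen. They were measured in white gonadal fat of mice lacking RAP1, a telomere-binding protein encoded by Terf2ip, and of wild-type mice. The members were taken by name and by their RefSeq transcripts, and a probe was kept when 4 or more of the 8 arrays read it well above background. All 38 passed, against 25065 genes and unnamed transcripts tested in all, and the brightest kept probe stood for each gene. Every member was well above background on 8 of 8 arrays.

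Total RNA of 8 mice was hybridized to 1 one-color Agilent array each, 4 from Rap1-/- and 4 from wild-type (WT) animals. All mice were 10 weeks old and on a C57BL6/129SV background (90%:10%). The study's results describe the animals as young females of both genotypes with similar body weight, compared before the onset of obesity. The knockout was constitutive and whole-body, made by crossing floxed Rap1 mice to a line with cre driven by the EIIa promoter, which acts in the early embryo, so RAP1 was missing from every cell type of the fat depot. Values are log2 signals relative to the 75th percentile of each array, so a value of 1 lies 1 doubling above that percentile, and a difference of 1 between genotypes is a 2-fold ratio.

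White adipocytes take up glucose through the insulin-responsive transporter GLUT4 (Slc2a4) and the basal transporter GLUT1 (Slc2a1). Hexokinase traps it as glucose 6-phosphate, phosphofructokinase commits it to glycolysis, and fructose 2,6-bisphosphate, set by the PFKFB enzymes, is the strongest activator of that step. Triose phosphates supply the glycerol backbone of stored triglyceride, pyruvate feeds lactate or the mitochondria, and a small glycogen pool is built by glycogen synthase and broken down by phosphorylase.

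The deleted gene was read first, as a check of the labels, and 1 of its 2 probes served for this. One Terf2ip probe read 0.06 to 0.49 in the WT arrays and -7.58 to -7.13 in the Rap1-/- arrays, where it was on no array well above background, so that it was at least 50.5-fold lower (limma, adjusted p = 1.9e-07 over all probes). The other Terf2ip probe was 5.22-fold higher in Rap1-/- arrays; whether it lies outside the deleted part is not known here, so it was not used as a check. The share of spots well above background was alike on the 8 arrays, at 59.7 to 65.2%. No spot was saturated, and array values correlated at 0.976 to 0.992. Intensity was less even. The 75th percentile that was subtracted stood at 497, 463, 392 and 435 in Rap1-/- replicates 1 to 4. In WT replicates 1 to 4 it stood at 375, 431, 302 and 422. Each of the 2 slides held 2 arrays of each genotype, but WT arrays lay in the first positions of a slide and Rap1-/- arrays in the later ones, so genotype and position cannot be told apart. Adipoq, Plin1 and Fabp4, which mark adipocytes, were well above background on 8 of 8 arrays.

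The fat samples held different amounts of skeletal muscle transcripts. Ckm, the muscle creatine kinase, read -3.60, 4.28, 3.07 and -5.74 in Rap1-/- replicates 1 to 4 and 3.22, 0.97, 0.04 and 2.92 in WT replicates 1 to 4, and was well above background on 7 of the 8 arrays. Acta1, the skeletal muscle actin, stood at 2.35, 7.14, 6.04 and 1.82 in the Rap1-/- arrays and at 5.83, 4.20, 2.99 and 5.64 in WT. Rap1-/- replicates 1 and 4 were lowest and replicates 2 and 3 of the same genotype were among the highest, so the muscle signal split the Rap1-/- group. The mean of all 18 skeletal muscle markers spanned -2.63 to 5.12 in Rap1-/- and 1.17 to 3.73 in WT. The genotypes also differed on average, with 17 of the 18 markers lower in Rap1-/- (median log2 difference -1.28). With E1A scaling 17 were lower as well (median -1.05).

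Markers of other cell types differed as well, none of them passing the test, and their part in the results below was not tested. An unadjusted p below 0.05 (limma) was found for 4 of 10 adipocyte, 3 of 9 mesothelium and 1 of 4 red blood cell markers. No skeletal muscle, brown adipocyte, macrophage, endothelial or fibroblast and preadipocyte marker had one, against 4.98% of all genes. Of 10 adipocyte markers, 9 were lower in Rap1-/- (median log2 difference -0.24; 5 lower and 5 higher with E1A scaling), with mean levels of 7.36 to 7.53 in Rap1-/- and 7.52 to 7.67 in WT. All 9 mesothelium markers measured were higher (median 0.63), under E1A scaling as well, whereas macrophage markers had a median of 0.15 (0.39 with E1A scaling) and endothelial markers one of -0.03 (0.20 with E1A scaling). Of 10 fibroblast and preadipocyte markers 7 were higher (median 0.20; 10 higher with E1A scaling), and all 4 red blood cell markers were lower (median -0.36; -0.12 with E1A scaling). Of 4 brown adipocyte markers 3 were lower (median -0.29, or -0.06 with E1A scaling). Fewer cells of a type and less RNA per cell cannot be told apart in these bulk samples.

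None of the 38 members passed an adjusted p of 0.05 (limma, Benjamini-Hochberg over all genes tested). Among all 25065 tested, 1 passed (0.00399%). It was Terf2ip by its brighter probe, the one 5.22-fold higher in Rap1-/- arrays that was not used as a check. The members' adjusted p ran from 0.874 to 0.999. Of the 38, 28 were lower and 10 higher in Rap1-/- fat, with a median log2 difference of -0.09 against -0.04 over all genes, of which 59.9% were lower. The split was 24 lower and 14 higher with quantile normalization, 22 and 16 with median scaling and 23 and 15 in the deposited values. Scaling the arrays to the E1A spike-in controls turned it around, to 14 lower and 24 higher with a median of 0.14, and moved the median of all genes to 0.19. Relative to the median of all genes, 23 of the 38 members lay below. The count is the same with E1A scaling by construction, since that scaling shifts the difference of every gene alike. As many genes lie below a median as above it.

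An unadjusted p below 0.05 was found for 6 members, all lower in Rap1-/-: Slc16a1, Pygl, Gbe1, Pfkl, Eno1 and Pfkfb1. These were 15.8% of the members, against 4.98% of all genes, made up of 3.31% lower and 1.67% higher. With E1A scaling none of the 6 kept such a p, although all remained lower. Without Rap1-/- replicate 1 only Pfkfb1 kept that p, and without WT replicate 1 only Pfkfb1 and Slc16a1 did. Without Rap1-/- replicate 4, or without WT replicate 4, 3 of the 6 kept it. Slc16a1, Pygl, Pfkl, Eno1 and Pfkfb1 had Rap1-/- and WT arrays that did not overlap, as did 3.26% of all genes, 2.36% lower in Rap1-/-; in 4 against 4 the smallest exact permutation p is 0.0286.

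**Figure D1:**
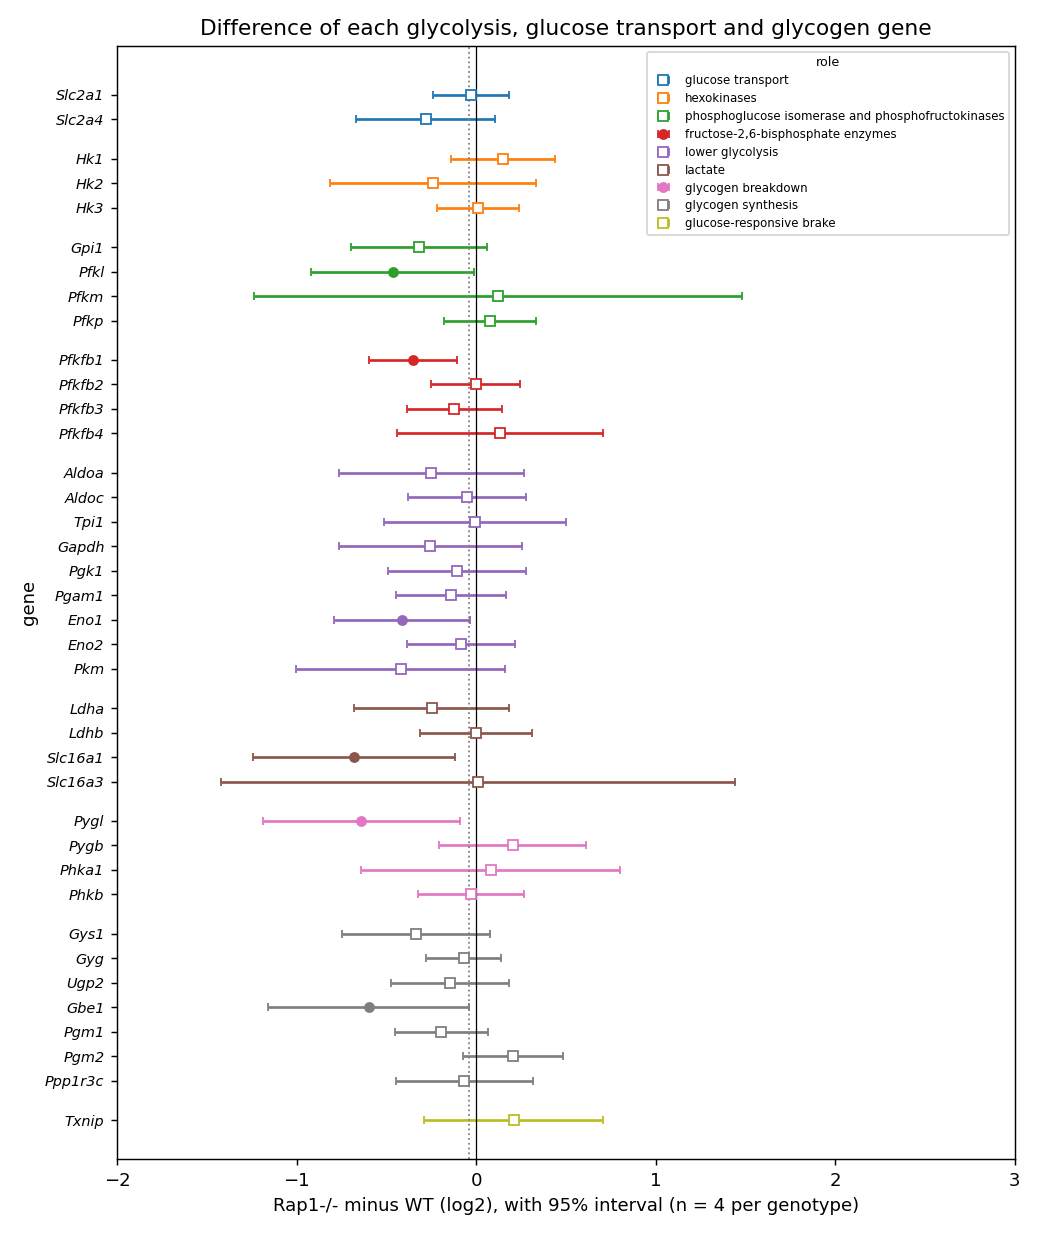
Log2 difference (Rap1-/- minus WT) of each of the 38 genes with its 95% interval, 4 arrays per genotype, grouped and colored by role. Filled circles mark the 6 genes with an unadjusted limma p below 0.05, all on the left; the dotted line is the median of all genes, -0.04.

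Single arrays carried much of the pattern. WT replicate 1 gave the highest value of 20 of the 38 members (16.3% of all genes were highest there), and Rap1-/- replicate 1 the lowest value of 23 (16.2% of all genes were lowest there). After centering each gene on its own mean, members averaged -0.29, 0.16, 0.01 and -0.15 in Rap1-/- replicates 1 to 4 and 0.28, -0.07, -0.07 and 0.14 in WT replicates 1 to 4. The group means were -0.07 ± 0.19 and 0.07 ± 0.17 (SD, n = 4 each), so the genotypes overlapped. Pfkl moved from -0.46 to -0.29 without WT replicate 1. Without Rap1-/- replicate 1, Ldha moved to -0.10, Pkm to -0.25 and Gapdh to -0.11; without WT replicate 1, Slc2a4 moved to -0.14, Aldoa to -0.10 and, outside the members, Mpc2 to -0.29 and Gpd1 to -0.28; Txnip moved to 0.06 without WT replicate 4. The median difference of the members was -0.05 without Rap1-/- replicate 1, -0.05 without WT replicate 1 and -0.21 without Rap1-/- replicate 2.

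**Figure D2:**
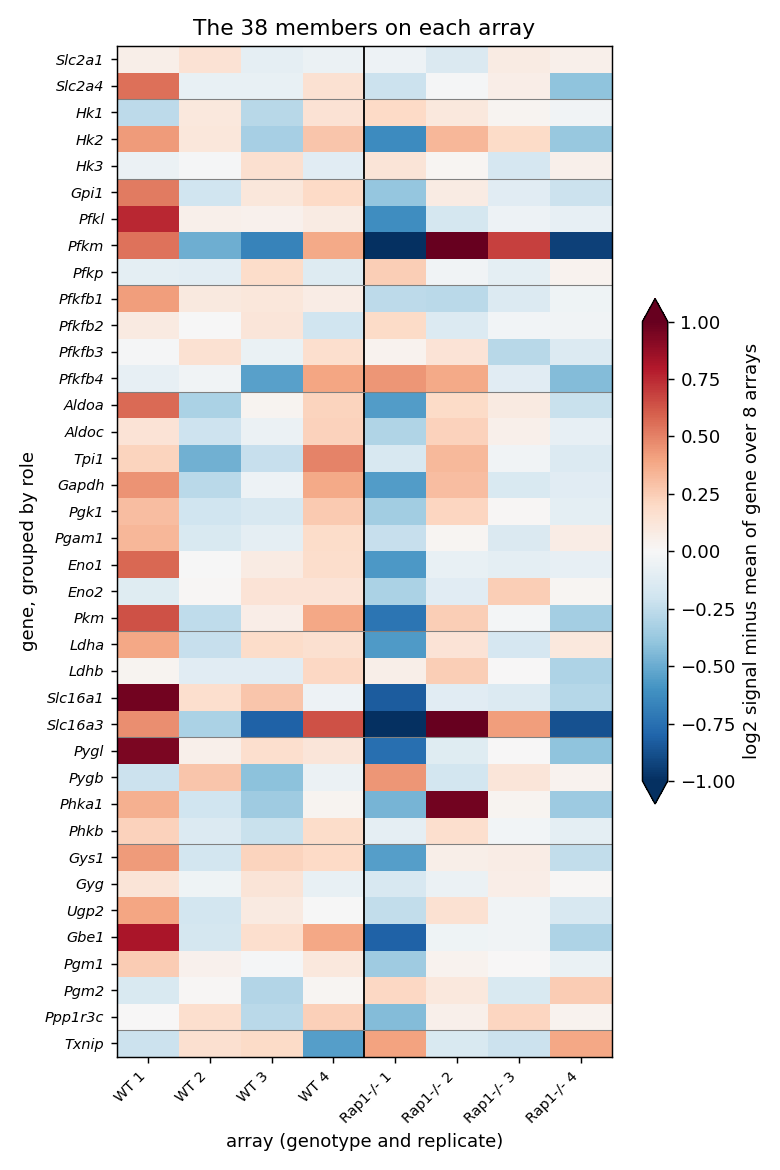
Log2 signal of the 38 members on each array, minus the gene's mean over 8 arrays, with genes in rows by role and arrays in columns (WT left of the line, Rap1-/- right); the scale stops at 1 and -1. The columns of WT replicate 1 (mean 0.28) and Rap1-/- replicate 1 (mean -0.29) stand apart, and Pfkm and Slc16a3 span the widest range.

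Both transporters had a lower mean without passing the test, and with E1A or median scaling 1 was lower and 1 higher. Slc2a4 stood at 6.12, 6.33, 6.40 and 5.93 in the Rap1-/- arrays and at 6.89, 6.26, 6.26 and 6.49 in WT. WT replicate 1 was highest, Rap1-/- replicate 4 was lowest and the remaining arrays overlapped. The log2 difference was -0.28 ± 0.17 (SE; limma, adjusted p = 0.874). Slc2a1 stood at 0.89, 0.80, 1.02 and 0.99 in the Rap1-/- arrays and at 0.99, 1.08, 0.85 and 0.88 in WT, a difference of -0.03 ± 0.09 (SE) between groups that lay over each other. Its interval reached from -0.24 to 0.18, and its sign turned with the scaling.

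Of the hexokinases, Hk2, the insulin-responsive isoform of muscle and fat, stood at 2.46, 3.43, 3.29 and 2.72 in the Rap1-/- arrays and at 3.52, 3.20, 2.76 and 3.38 in WT. Its Rap1-/- arrays split into a low and a high pair, and the low pair was replicates 1 and 4, those with the least muscle signal. Hk1, the widely expressed isoform, was 0.15 ± 0.13 higher and Hk3 0.01 ± 0.10 higher (SE, log2), with overlapping groups. The 2 Hk1 probes disagreed in sign.

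The phosphofructokinase subunits showed different patterns. Pfkl, the liver-type subunit (chr10:77986947-78009807, GRCm38.p6), stood at 1.70, 2.15, 2.28 and 2.24 in the Rap1-/- arrays and at 3.08, 2.38, 2.37 and 2.40 in WT. Every WT array was above every Rap1-/- array, with WT replicate 1 far above and Rap1-/- replicate 1 far below the rest. It was 1.38-fold lower (log2 difference -0.46 ± 0.20, SE; limma, unadjusted p = 0.046, adjusted p = 0.874). Pfkm, the muscle-type subunit, stood at 2.00, 4.50, 3.70 and 2.08 in the Rap1-/- arrays and at 3.56, 2.52, 2.34 and 3.39 in WT, a span of 2.50 over 8 arrays. Its groups overlapped and differed by 0.12 ± 0.59 (SE). Pfkp, the platelet-type subunit, was 0.08 ± 0.11 higher (SE, log2), with probes that disagreed in sign. Gpi1, phosphoglucose isomerase, was 0.32 ± 0.17 lower (SE, log2) on its brightest probe, and all 3 of its probes were lower, by -0.32 to -0.29.

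Pfkfb1, the liver-type enzyme that makes and breaks fructose 2,6-bisphosphate (chrX:150587445-150643878), stood at 4.37, 4.36, 4.49 and 4.59 in the Rap1-/- arrays and at 5.05, 4.73, 4.74 and 4.70 in WT. The groups did not overlap, and WT replicate 1 stood above the other three WT arrays. It was 1.28-fold lower in Rap1-/- (log2 difference -0.35 ± 0.11, SE; limma, unadjusted p = 0.010, adjusted p = 0.874), and this was the only member to keep an unadjusted p below 0.05 without each single array. Pfkfb3, the inducible isoform, stood at 6.23, 6.32, 5.91 and 6.05 in the Rap1-/- arrays and at 6.18, 6.34, 6.12 and 6.36 in WT, a difference of -0.12 ± 0.11 (SE) with overlap. Pfkfb2 and Pfkfb4 differed by -0.0021 and 0.13.

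All 9 members of the lower pathway, from aldolase to pyruvate kinase, had a lower mean in Rap1-/- (median log2 difference -0.14), but 7 did with median scaling and 4 with E1A scaling. Eno1, the widely expressed enolase (chr4:150236708-150248879), stood at 6.18, 6.68, 6.65 and 6.67 in the Rap1-/- arrays and at 7.33, 6.75, 6.83 and 6.92 in WT. The groups did not overlap, with Rap1-/- replicate 1 far below the others of its genotype and WT replicate 1 above those of its own. Eno1 was 1.33-fold lower (log2 difference -0.41 ± 0.17, SE; limma, unadjusted p = 0.036, adjusted p = 0.874).

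Pkm, pyruvate kinase, stood at 4.35, 5.33, 5.06 and 4.74 in the Rap1-/- arrays and at 5.72, 4.83, 5.14 and 5.46 in WT, a difference of -0.42 ± 0.25 (SE) with overlap. Aldoa, the main aldolase of fat and muscle, stood at 8.62, 9.38, 9.27 and 8.96 in the Rap1-/- arrays and at 9.75, 8.87, 9.21 and 9.40 in WT. Gapdh stood at 7.76, 8.63, 8.17 and 8.20 in the Rap1-/- arrays and at 8.77, 8.05, 8.27 and 8.70 in WT. In all 3 the genotypes overlapped and the lowest array was Rap1-/- replicate 1. The 7 Gapdh probes were all lower, by -0.33 to -0.10, and the rest of the step (Aldoc, Tpi1, Pgk1, Pgam1 and Eno2) differed by -0.14 to -0.0047. Tpi1 counted as lower on its brighter probe at -0.0047, while its other probe was 0.11 higher.

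**Figure D3:**
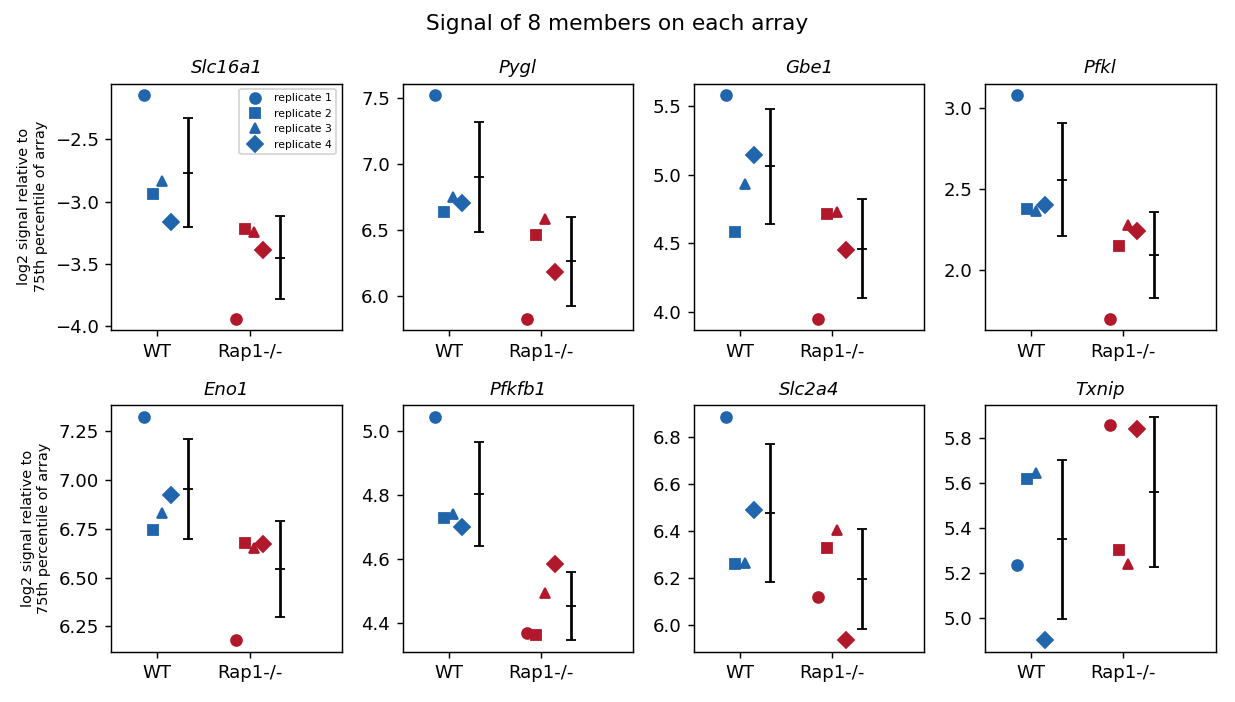
Log2 signal relative to the 75th percentile on each array for 8 members; blue symbols are WT, red symbols Rap1-/-, the shape gives the replicate, and the black bars are mean ± SD (n = 4). For Slc16a1, Pygl, Pfkl, Eno1 and Pfkfb1 every WT array lies above every Rap1-/- array; for Gbe1, Slc2a4 and Txnip the genotypes overlap.

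The lactate carriers included the widest span over the arrays and, on the scale used here, the largest difference between genotypes. Slc16a1 (MCT1, chr3:104638664-104658462), which carries lactate across the plasma membrane, stood at -3.94, -3.22, -3.24 and -3.39 in the Rap1-/- arrays and at -2.14, -2.94, -2.83 and -3.16 in WT. No Rap1-/- array reached the lowest WT array, replicate 4, and WT replicate 1 was by far the highest. It was 1.60-fold lower (log2 difference -0.68 ± 0.25, SE; limma, unadjusted p = 0.023, adjusted p = 0.874). With normexp background correction the difference was -0.43 and in the deposited values -0.31, where those of Pygl (-0.59 and -0.51) and Gbe1 (-0.61 and -0.59) were larger. Slc16a3 (MCT4), the lactate exporter of glycolytic muscle, stood at -1.39, 1.41, 0.19 and -1.10 in the Rap1-/- arrays and at 0.24, -0.55, -1.04 and 0.41 in WT. Its difference between genotypes was 0.01 ± 0.62 (SE) and its span over the arrays was 2.79.

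Ldha, the pyruvate-to-lactate subunit, stood at 7.90, 8.60, 8.30 and 8.58 in the Rap1-/- arrays and at 8.85, 8.24, 8.65 and 8.63 in WT, a difference of -0.25 ± 0.19 (SE) with overlap, and its 3 probes ran from -0.34 to -0.19. Ldhb, the lactate-to-pyruvate subunit, stood at 4.26, 4.44, 4.20 and 3.89 in the Rap1-/- arrays and at 4.22, 4.08, 4.08 and 4.40 in WT, with no separation and a difference of -0.0015 ± 0.14.

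The promoters of the 2 lactate carriers, and of Pygl, are shown because these genes gave the widest span (Slc16a3) and differences among the largest of the members. The windows are RefSeq sequences of GRCm38.p6, the 250 bases before a transcript start, read 5′ to 3′ on the gene's strand, and 37 of 38 members had one (Slc2a4 had none). Capitals mark CACGTG, the E-box core bound by carbohydrate-response and MYC-type factors, or ACGTG, the core of the hypoxia response element; the second is contained in the first. They lie at chr11:120948817-120949066 (plus strand), chr3:104638414-104638663 (plus strand) and chr12:70227684-70227933 (minus strand).
Slc16a3: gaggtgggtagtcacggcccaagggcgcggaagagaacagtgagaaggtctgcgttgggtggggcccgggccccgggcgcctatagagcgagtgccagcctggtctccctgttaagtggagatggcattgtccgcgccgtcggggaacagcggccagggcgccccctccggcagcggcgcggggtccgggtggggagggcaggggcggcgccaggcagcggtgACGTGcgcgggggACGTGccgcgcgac
Slc16a1: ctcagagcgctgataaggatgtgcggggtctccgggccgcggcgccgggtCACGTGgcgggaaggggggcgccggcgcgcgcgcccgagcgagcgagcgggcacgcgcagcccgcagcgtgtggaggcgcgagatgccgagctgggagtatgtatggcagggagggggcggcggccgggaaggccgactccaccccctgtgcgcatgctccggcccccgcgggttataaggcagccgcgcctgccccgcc
Pygl: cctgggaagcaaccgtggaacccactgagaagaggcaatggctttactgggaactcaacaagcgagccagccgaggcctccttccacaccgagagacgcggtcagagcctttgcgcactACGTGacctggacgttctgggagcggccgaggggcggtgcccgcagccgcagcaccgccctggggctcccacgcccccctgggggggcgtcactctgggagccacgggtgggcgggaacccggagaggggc
The Slc16a3 window precedes a transcript start inside the annotated gene (chr11:120948484-120959000), not the gene's first base. It held ACGTG 27 and 14 bases before that start, Slc16a1 held CACGTG 200 bases before, and Pygl held ACGTG 131 bases before. On either strand, ACGTG occurred in 23 of the members' 55 windows (41.8%) and in 16.6% of 32851 windows of all genes, and CACGTG in 6 of 55 (10.9%) and 6.02% of all. Of the 6 members lower in Rap1-/-, only Slc16a1 and Pygl held either motif. Gbe1, Pfkl, Eno1 and Pfkfb1 held neither and are not shown, although the difference of Gbe1 was close to that of Pygl. Windows of 1 gene can overlap. The letters are a description and no binding was measured.

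In glycogen breakdown, Pygl, the liver-type phosphorylase (chr12:70190815-70227683), stood at 5.82, 6.46, 6.58 and 6.18 in the Rap1-/- arrays and at 7.52, 6.63, 6.74 and 6.70 in WT. The groups did not overlap, but Rap1-/- replicate 3 lay just under WT replicate 2. It was 1.56-fold lower (log2 difference -0.64 ± 0.24, SE; limma, unadjusted p = 0.027, adjusted p = 0.874). Pygb, the brain-type phosphorylase, was 0.20 ± 0.18 higher with overlap. Of the phosphorylase kinase subunits, Phka1, the muscle alpha subunit, stood at 0.72, 2.14, 1.21 and 0.82 in the Rap1-/- arrays and at 1.54, 0.99, 0.83 and 1.21 in WT, and Phkb differed by -0.03 ± 0.13, with probes that disagreed in sign. Both overlapped between genotypes.

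In glycogen synthesis 6 of 7 members were lower, against 2 of 7 with E1A scaling. Gbe1, the branching enzyme (chr16:70313949-70569720), stood at 3.95, 4.71, 4.73 and 4.46 in the Rap1-/- arrays and at 5.58, 4.59, 4.93 and 5.15 in WT. WT replicate 2 lay below Rap1-/- replicates 2 and 3, so the groups overlapped. It was 1.51-fold lower (log2 difference -0.60 ± 0.24, SE; limma, unadjusted p = 0.039, adjusted p = 0.874). Gys1, the glycogen synthase of muscle and fat, stood at 3.59, 4.20, 4.21 and 3.89 in the Rap1-/- arrays and at 4.56, 3.95, 4.36 and 4.34 in WT, a difference of -0.33 ± 0.18 (SE) with overlap. Ppp1r3c, a subunit that targets protein phosphatase 1 to glycogen, stood at 0.67, 1.15, 1.31 and 1.13 in the Rap1-/- arrays and at 1.10, 1.27, 0.83 and 1.34 in WT, without separation. Gyg, Ugp2 and Pgm1 differed by -0.19 to -0.07 and Pgm2 by 0.21.

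Txnip, the arrestin that restrains glucose uptake and is induced by glucose, stood at 5.86, 5.30, 5.24 and 5.84 in the Rap1-/- arrays and at 5.24, 5.62, 5.64 and 4.90 in WT. Rap1-/- replicates 1 and 4, the arrays with least muscle signal, were highest, and WT replicate 4 was lowest. The difference of 0.21 ± 0.22 (SE) did not pass the test (limma, adjusted p = 0.901).

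Several members varied with the muscle transcripts. Against the mean of Ckm and Acta1 over the 8 arrays, 30 of 38 members had a positive Pearson's r (median 0.57, against -0.05 over 25063 genes, of which 44.4% were positive). None passed an adjusted p of 0.05 in an exact permutation test of 40320 pairings, whereas 94 of all genes did (0.375%), and 11 members (28.9%) had an unadjusted p below 0.05, against 6.54% of all genes. Each slide held 4 arrays, too few for a correlation within slides.

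The 4 closest were Pfkm, Hk2, Slc16a3 and Phka1. For Pfkm r was 0.92 (exact permutation p = 0.0018, adjusted 0.229) and Spearman's rho 0.98 (permutation p = 0.00040, adjusted 0.093), and r was 0.97 without the 2 arrays farthest from the median, Rap1-/- replicates 1 and 4. For Hk2, r was 0.91 (exact permutation p = 0.0028, adjusted 0.290; rho 0.86, p = 0.011, adjusted 0.549) and 0.88 without those arrays. For Slc16a3, r was 0.90 (exact permutation p = 0.0023, adjusted 0.270; rho 0.88, p = 0.0072, adjusted 0.485) and 0.96 without them. For Phka1, r was 0.81 (exact permutation p = 0.013, adjusted 0.543; rho 0.90, p = 0.0046, adjusted 0.383) and 0.87 without them. Txnip ran the other way, at -0.85 (exact permutation p = 0.0080, adjusted 0.458; rho -0.74, p = 0.046, adjusted 0.784) and -0.69 without them.

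**Figure D4:**
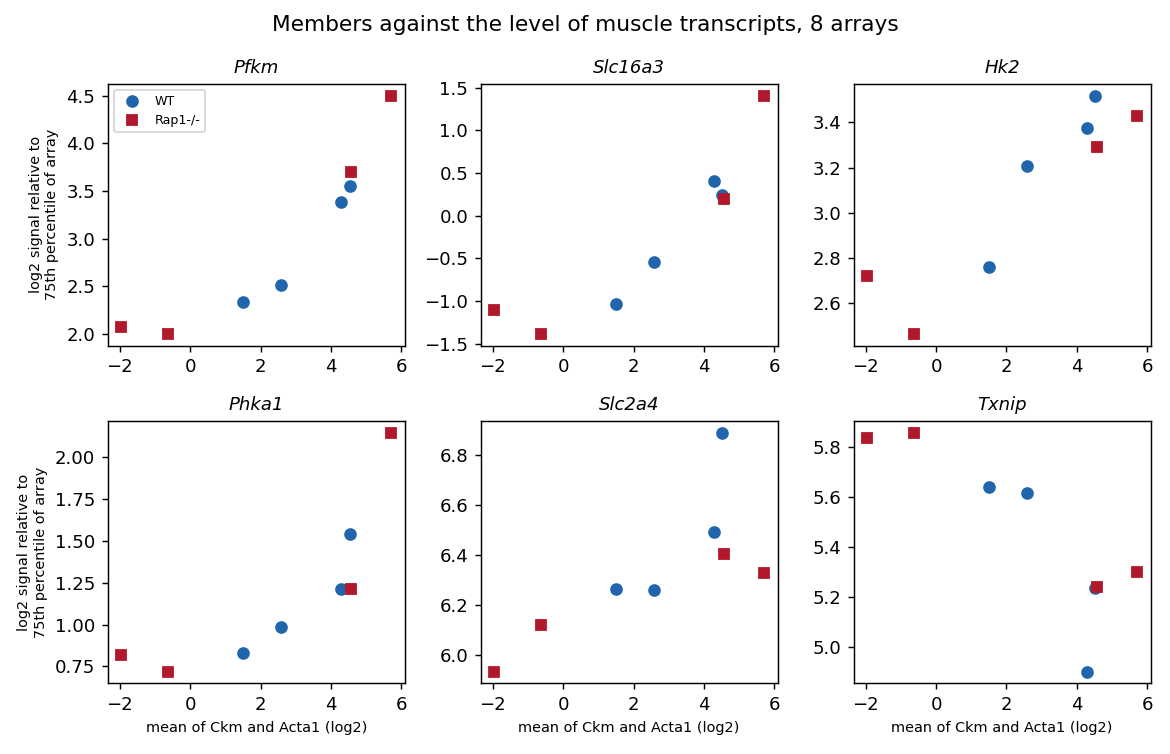
Log2 signal of 6 members (vertical axes) against the mean of Ckm and Acta1 (horizontal axes, log2) on the 8 arrays; blue circles are WT and red squares Rap1-/-. Pfkm, Slc16a3, Hk2 and Phka1 run up along the axis in both genotypes (r of 0.81 to 0.92), Slc2a4 has r of 0.75 and Txnip runs down it (r of -0.85).

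The 4 closest members were chosen for the highest r, so a lower r in the 6 members lower in Rap1-/- was fixed beforehand. Over all members the median r was 0.57. Over 8 arrays r was 0.63 for Gbe1, 0.61 for Pygl, 0.51 for Eno1, 0.49 for Slc16a1, 0.45 for Pfkl and 0.17 for Pfkfb1 (exact permutation p of 0.094 to 0.686). Without Rap1-/- replicates 1 and 4 it was 0.15, 0.00, 0.03, -0.17, 0.00 and -0.37 in the same order. That r pools arrays of both genotypes, and both arrays left out were Rap1-/-. The Rap1-/- arrays that remained, replicates 2 and 3, had the highest mean of Ckm and Acta1 (5.71 and 4.56). The difference between genotypes therefore enters that r, and no conclusion is drawn from it. Within the 4 WT arrays alone r was 0.72, 0.58, 0.72, 0.33, 0.64 and 0.52 in the same order. Within the 4 Rap1-/- arrays it was 0.73, 0.80, 0.44, 0.64, 0.37 and -0.45. With 4 arrays each, these are values only and were not tested. Spearman's rho over 8 arrays ran from -0.17 to 0.52 (exact permutation p of 0.197 to 0.703). With the mean of Ckm and Acta1 as a covariate, Slc16a1 was lower by -0.60 ± 0.24, Pygl by -0.53 ± 0.21 and Pfkfb1 by -0.36 ± 0.12 (SE, log2). Gbe1 (-0.49 ± 0.21), Pfkl (-0.41 ± 0.20) and Eno1 (-0.36 ± 0.16) had unadjusted p of 0.053, 0.081 and 0.063 in that fit (limma), so these 3 no longer lay below 0.05. In the same fit Pfkm was higher by 0.55 ± 0.17 (limma, adjusted p = 0.867). The members' median difference was then -0.06, and within slide 1 and slide 2 it was -0.16 and -0.11. Within slide 1 and slide 2, Slc16a1 differed by -1.04 and -0.32, Pygl by -0.93 and -0.34, Pfkl by -0.80 and -0.13, Eno1 by -0.61 and -0.22, Pfkfb1 by -0.52 and -0.18 and Gbe1 by -0.75 and -0.45.

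Of 59 further genes of the same pathways, 53 were tested, 35 were lower and 18 higher, with a median difference of -0.08 (15 lower, 38 higher and 0.15 with E1A scaling), and none passed. Those with the highest r to Ckm and Acta1 were the muscle isozyme Pgam2 at 1.00 (exact permutation adjusted p = 0.033), Ppp1r3a, the muscle subunit that targets protein phosphatase 1 to glycogen and was named after its value was seen, at 0.99 (adjusted 0.028), and the muscle isozymes Eno3 at 0.97 (adjusted 0.028) and Pygm at 0.94 (adjusted 0.091). In the genotype comparison, 1 of the 53 was lower and 2 higher at an unadjusted p below 0.05, a share close to the 4.98% of all genes. In 3 the groups did not overlap, all higher in Rap1-/-, as in 0.898% of all genes. These were Slc2a3, the high-affinity transporter GLUT3 (log2 difference 0.21 ± 0.08, SE), Nhlrc1, malin, a ubiquitin ligase of glycogen metabolism (0.23 ± 0.10), and Mlxip, MondoA, a glucose-sensing transcription factor (0.17 ± 0.08). Slc2a3 was at 0.063 ± 0.089 with normexp background correction and at 0.10 ± 0.08 in the deposited values, and with the mean of probes Nhlrc1 was at 0.54 and Mlxip at 0.10. G6pc, glucose 6-phosphatase, was 0.58 lower, Mpc2, a subunit of the mitochondrial pyruvate carrier, 0.51 lower, and Gpd1, which makes glycerol 3-phosphate, 0.43 lower (log2), all with overlapping groups. These shrank to -0.26, -0.41 and -0.23 in the deposited values and to -0.35, -0.28 and -0.20 with E1A scaling, in the same order.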

How the data were processed

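The authors hybridized Cy3-labeled total RNA to one-color arrays and quantified images with Feature Extraction. The file headers give version 10.7.3.1, whereas the study's methods name another version. The deposited scanner files hold linear intensity per spot, not normalized between arrays, and per-spot flags (above background, saturation, outliers). A table of processed values, deposited on a log2 scale, was made by the authors with limma, per their notes; it matched normexp background correction (offset 50) with quantile normalization and served as an alternative.

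From 62976 spots per array, control spots were left out, the log2 processed signal had each array's 75th percentile subtracted, and spots of a probe were averaged. Probes were named by RefSeq accession in a GRCm38.p6 table, which named 26056 of 55681 (46.8%). Probes well above background on at least 4 arrays were kept (33983). Genes took their brightest probe. Genotypes, from the labels, were compared by lmFit and eBayes of limma 3.58.1 in R 4.3.3, Benjamini-Hochberg adjusted over 25065 genes and unnamed transcripts. The labels call the samples biological replicates, 4 per genotype.

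The members and gene lists were chosen with earlier results of these data known. Values on every array are given for members with an unadjusted p below 0.05 or non-overlapping groups, for the 4 closest to Ckm and Acta1, and for the transporters and main control points; of other pathway genes the 6 with smallest p and the muscle isozymes are named. Alternatives were background correction, normalization, scaling, filter, probe choice, slide, replicate number, the muscle covariate and each array left out. In simulated data with 200 changed genes and independent noise, the comparison recovered 64.6% of log2 changes of 1 and 16.2% of 0.5. These rates may be too high for the members. In the real data 1 gene passed, and arrays shared variation such as the muscle signal. The median SE was 0.17 for members against 0.14 over all genes. Promoter windows came from RefSeq. Python 3.11.15 was used.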

Additional observations from a re-analysis of the deposited data

Results flagged for a closer look

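In 5 of the 76 groups of 4 arrays tested (38 members, 2 genotypes), 1 array stood apart from the other three by more than Dixon's 95% critical value allows; chance flags about 5% of groups. WT replicate 1 was highest for Pfkl (3.08, others 2.37 to 2.40), for Pfkfb1 (5.05, others 4.70 to 4.74) and for Pygl (7.52, others 6.63 to 6.74). Rap1-/- replicate 1 was lowest for Eno1 (6.18, others 6.65 to 6.68). WT replicate 3 was highest for Pfkp (1.67, others 1.37 to 1.39).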

How the results depend on the processing

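The count over all genes passing an adjusted p of 0.05 was 1, and was 2 with normexp correction, the deposited values or a trended and robust variance, and 0 within slide 1 or slide 2. Of 660 alternative values (30 named genes, 22 settings), 615 kept direction and side of the threshold and 45 changed sign. None of the sign changes was among the 6 lower members, and the lowest adjusted p (limma) was 0.534. Part of this was fixed beforehand. The filters, the slide and replicate blocks and the variance model left the named genes' differences unchanged. Where groups did not overlap, leaving out a single array could not turn the sign. No adjusted p came near 0.05, so the side of the threshold was not at stake. The members' median was 0.14 with scaling to E1A controls and ran from -0.21 to -0.05 with single arrays left out. The count of members at an unadjusted p below 0.05, 6 on the scale used, was 0 with E1A scaling, 0 within slide 2 and 1 to 8 with single arrays left out. Within slide 1 it was 2, of which 1 (Pfkfb1) was among the 6 and the other, Pfkfb4, was higher. With the replicate number as a block, 1 member (Pfkfb1) had such a p and the members' median was -0.09. Same-numbered arrays did not deviate together (r of -0.22, -0.13, -0.13 and -0.16), so the numbers were not read as pairs. Sign changes were as follows. With normexp, Slc2a1 was 0.0016 and Ldhb 0.045. With quantile normalization Ldhb was 0.047. With median scaling Slc2a1 was 0.032 and Ldhb 0.059. With E1A scaling Slc2a1 was 0.20, Pfkfb3 0.11, Ldhb 0.23, Ppp1r3c 0.16 and Pygm 0.054. With the deposited values Pfkfb3 was 0.012 and Ldhb 0.051. Within slide 1 Pfkfb3 was 0.020, Ldhb 0.20 and Pygm 0.13; within slide 2 Slc2a1 was 0.14, Slc16a3 -0.14, Phka1 -0.0060 and Ppp1r3c 0.14. With the muscle covariate Ldhb was 0.066, Eno3 0.45 and Pygm 0.39. With single arrays left out, Slc2a1 ran from -0.062 to 0.016, Pfkm -0.36 to 0.48, Slc16a3 -0.53 to 0.40, Phka1 -0.23 to 0.25, Ldhb -0.084 to 0.10, Ppp1r3c -0.17 to 0.065, Eno3 -1.12 to 0.30 and Pygm -0.84 to 0.34. E1A scaling shifted all genes by 0.23. The log2 E1A signal was 11.84, 11.76, 11.68 and 11.76 in Rap1-/- replicates 1 to 4 and 11.69, 11.71, 11.81 and 11.83 in WT. The log2 75th percentile was 8.96, 8.85, 8.62 and 8.77 in Rap1-/- and 8.55, 8.75, 8.24 and 8.72 in WT. Why the percentile lay higher on average in Rap1-/- was not tested. The number of arrays limits the precision, since log2 changes of 0.5 were rarely recovered in simulation.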
